A study of Homo sapiens with 9 samples.

Results

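NCCIT, a human embryonal carcinoma line, was grown as embryoid bodies, and those kept without ethanol were compared at 21 days and at 7 days of culture. Members were chosen by their labels alone, as the arrays of embryoid bodies that had received no ethanol, and were matched on FA. They are 4 of the 9 arrays in the series, 2 from each day. NCCIT is an established line of pluripotent-like tumour cells, kept in RPMI-1640 medium with fetal bovine serum, and in dishes that do not allow attachment it aggregates and starts to differentiate. At each day 1 array came from embryoid bodies with no addition and 1 from embryoid bodies given an additive that the labels abbreviate as FA without naming it or its dose. The other arrays were 1 of undifferentiated cells and 4 of embryoid bodies kept in 50 mM ethanol, with and without FA, at the same 2 days. The protocol in the labels describes a culture of 7 days, and day 21 is known from the sample titles alone. There was 1 array for each condition, and the labels do not say that arrays came from separate cultures.

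Embryonal carcinoma cells keep the regulators of the pluripotent state, among them the microRNAs of the miR-302 family and the DNA methyltransferase DNMT3B, and lose them as they differentiate. Retinoic acid, made from vitamin A by aldehyde dehydrogenases and destroyed by CYP26 enzymes, binds nuclear receptors that sit on DNA as pairs. It is a classical inducer of differentiation in such cells, and the genes it switches on include its own receptor RARB, its own degrading enzyme CYP26A1 and HOX genes. HOX genes lie in 4 clusters and set position along the body axis, with genes at the 3′ end of a cluster active in the hindbrain and genes at the 5′ end further back. These statements are background and not results of the arrays.

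The microRNA whose gene rose most and the pair whose genes fell most are shown with the other microRNAs of the list that changed, as mature sequences from RefSeq (GRCh38.p14). Capitals mark the seed, bases 2 to 8, which pairs with target messages.
hsa-miR-10a-5p: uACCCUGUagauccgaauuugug
hsa-miR-99a-5p: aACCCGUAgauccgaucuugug
hsa-let-7i-5p: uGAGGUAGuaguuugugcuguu
hsa-miR-302a-3p: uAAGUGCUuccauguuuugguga
hsa-miR-302b-3p: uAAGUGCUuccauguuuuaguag
The 2 miR-302 sequences share the seed AAGUGCU and the other 3 each have a seed of their own. MIR10A lies within the HOXB cluster on chromosome 17, MIR99A on chromosome 21, MIRLET7I on chromosome 12, and MIR302A and MIR302B side by side on chromosome 4.

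The promoters of RARB and CYP26A1 are shown because both genes rose and both hold a repeat of the element that retinoic acid receptors bind. The search was for NGGTCA or NGTTCA followed by a second such element in the same direction after a gap of 5 bases (DR5) or 2 bases (DR2), on both strands, from 250 bases before to 50 bases after each start in RefSeq (GRCh38.p14). The 250 bases before the start are printed 5′ to 3′ on the gene's strand, with the DR5 match in capitals. RARB is at chr3:25428013-25428262 on the plus strand and CYP26A1 at chr10:93073643-93073892 on the plus strand.
RARB: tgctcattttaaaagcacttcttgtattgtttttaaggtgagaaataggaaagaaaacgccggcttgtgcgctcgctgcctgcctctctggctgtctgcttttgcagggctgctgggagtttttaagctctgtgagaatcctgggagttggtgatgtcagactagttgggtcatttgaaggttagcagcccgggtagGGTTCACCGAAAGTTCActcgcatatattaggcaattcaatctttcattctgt
CYP26A1: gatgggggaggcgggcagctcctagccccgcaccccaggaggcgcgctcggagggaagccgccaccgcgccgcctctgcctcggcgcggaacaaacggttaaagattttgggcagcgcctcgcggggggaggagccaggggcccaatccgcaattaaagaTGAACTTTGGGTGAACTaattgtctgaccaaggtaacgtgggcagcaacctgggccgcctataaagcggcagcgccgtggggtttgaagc
The RARB match starts 53 bases before this start (position -53) and reads on the gene's strand. The CYP26A1 match covers positions from -90 and reads on the opposite strand as AGTTCACCCAAAGTTCA. Of 17 promoters of RARB, CYP26A1 and the HOX genes in the table, which belong to 13 genes, 2 held a DR5 match and 0 a DR2 match. The matches were in 1 of the 4 promoters of RARB and 1 of the 2 promoters of CYP26A1. Among all 35116 promoters 0.174% held a DR5 match and 0.159% a DR2 match. RARB and CYP26A1 were searched as genes known to be switched on by retinoic acid, so these shares are not a test of enrichment. A match is a description of the letters and does not show that a receptor was bound.

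Between day 7 and day 21 without ethanol, MIR10A, FRZB, HOX genes and genes of retinoic acid handling rose, and genes of the embryonal carcinoma state fell. The largest increase was 49.2-fold (MIR10A) and the largest decrease 12.9-fold (MIR302B). Of the 12254 genes tested, 2405 (19.6%) rose and 1997 (16.3%) fell in limma with Benjamini-Hochberg adjustment, which together made 4402 (35.9%). In embryoid bodies, which are mixtures of cells, fewer cells of a type and less RNA per cell cannot be told apart. The increases had the longer tail, with 133 genes (1.09%) at least 4-fold higher against 35 (0.286%) at least 4-fold lower, and 17 genes (0.139%) at least 16-fold higher against 0 (0.0%) at least 16-fold lower. At 2-fold the numbers were 449 (3.66%) and 239 (1.95%). After median centring of the arrays, 2752 rose and 1489 fell, so the balance of directions depended on the scaling. Values are log2 expression values, and an increase of 1 is a doubling of signal. Differences are means of the 2 matched pairs with the SE of the fit, whose spread was estimated over all 8 embryoid body arrays. The number of calls depended on single arrays, with 1844 genes without the day 7 array with no addition, 1986 without the day 7 FA array, 2393 without the day 21 array with no addition, 2814 without the day 21 FA array and 6852 without either day 7 ethanol array.

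The values of the matched pairs are given side by side. Agreement in sign is nearly fixed by a call made on their mean, and all 4402 genes that passed had it, while 404 genes (3.3%) were at least 2-fold higher and 211 (1.72%) at least 2-fold lower in both. The pair without FA had 511 genes (4.17%) at least 2-fold higher and 250 (2.04%) lower, and the pair with FA 425 (3.47%) and 263 (2.15%). Across the genes tested the differences of the pairs correlated at 0.959, a description over genes, which are not independent and share normalization. No array of the 4 stood apart, since the day 7 arrays correlated at 0.9974, the day 21 arrays at 0.99622 and arrays of different days at 0.97762 to 0.97996.

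**Figure D1:**
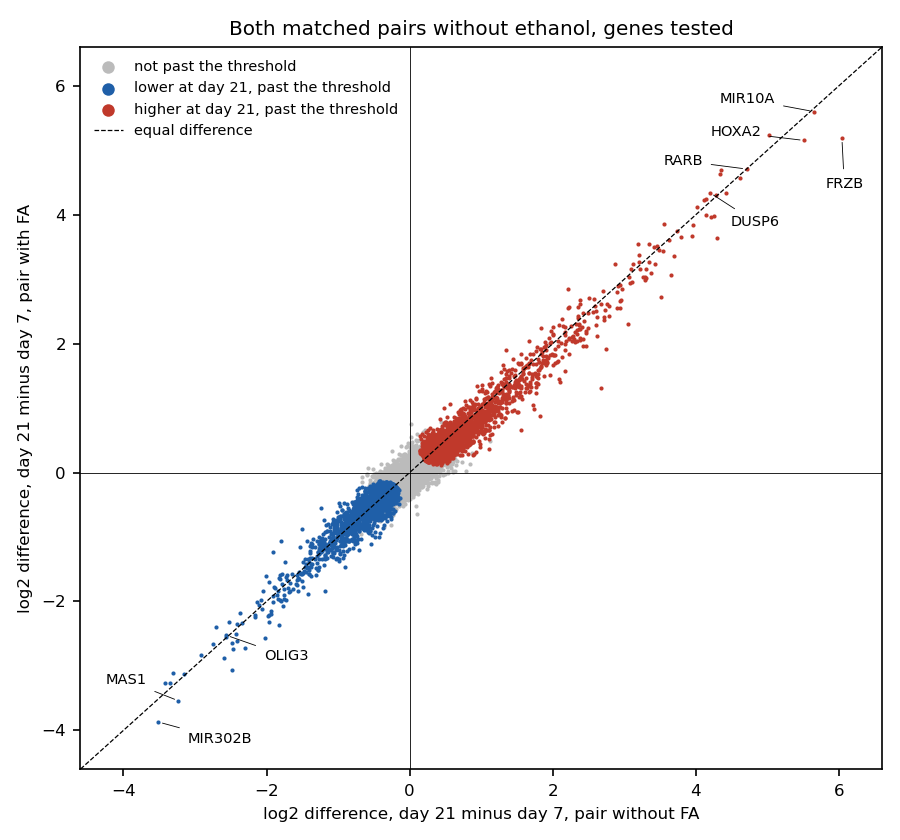
Each point is 1 of the 12254 genes tested, with the log2 difference between day 21 and day 7 in the pair without FA on the horizontal axis and in the pair with FA on the vertical axis. Red and blue points passed the test as higher and lower, and lie along the dashed line of equal difference, with FRZB at 6.04 and 5.19 below it.

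FRZB, the gene of a secreted protein that binds WNT, had log2 values of 7.02 in undifferentiated cells, 6.13 and 6.78 at day 7 and 12.17 and 11.96 at day 21 (without and with FA, the order used throughout). The difference was 5.61 ± 0.22, or 48.9-fold. The homeobox gene HOXA2, a hindbrain and neural crest regulator, read 6.76 in undifferentiated cells, 6.38 and 6.72 at day 7 and 11.90 and 11.87 at day 21, a difference of 5.33 ± 0.12. MEIS1, a DNA-binding cofactor of HOX proteins, went from 6.25 and 6.06 to 11.27 and 11.30 (5.13 ± 0.11). In all 3 genes the day 7 arrays lay within 1 log2 unit of the undifferentiated array and the days did not overlap.

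RARB and PAX6, an eye and neural tube regulator, were also among the 15 largest increases, a ranking that passed over small RNAs such as MIR10A, and are described with their groups. SKAP2, an adaptor of cell adhesion signalling that lies beside the HOXA cluster, rose from 7.58 and 7.42 to 12.19 and 11.98 (4.59 ± 0.19). PDZRN3, which codes for a ubiquitin ligase, rose from 7.54 and 7.61 to 11.95 on both day 21 arrays (4.38 ± 0.07). The other increases of this rank were HOXC5 (4.49), the lysosomal membrane protein gene LAMP5 (4.29), the ERK phosphatase gene DUSP6 (4.27), HOXB3 (4.19), MIR99AHG (4.17), the host transcript of MIR99A, the prohormone-processing enzyme gene CPE (4.12), the guidance cue gene SEMA3C (4.09) and HOXB1 (4.07). Over these 15 genes the adjusted p in limma with Benjamini-Hochberg adjustment was lowest for PDZRN3 (1.60e-06) and highest for SKAP2 (1.52e-05).

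The largest decreases were smaller than the largest increases, and their ranking also passed over small RNAs. MAS1, a receptor gene of the angiotensin system, read 8.87 in undifferentiated cells, 9.35 and 9.24 at day 7 and 6.11 and 5.70 at day 21 (-3.39 ± 0.15, a 10.5-fold decrease). TRIML2 (-3.34 ± 0.09), the rhesus blood group gene RHD (-3.31 ± 0.26), HHLA1 (-3.20), RPL39L (-2.87), TPTEP1 (-2.77), GLB1L3 (-2.56) and VAT1L (-2.51) followed. L1TD1, PRDM14, CRIPTO and DPPA3, genes of the pluripotent state, and the ERK-responsive transcription factor gene ETV4 completed the list with VIPR2 and OLIG3. RHD and TPTEP1 had the largest SE of these 15, and limma's adjusted p with Benjamini-Hochberg adjustment was 0.000189 for RHD and 0.000472 for TPTEP1.

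VIPR2 and OLIG3 are given apart because their undifferentiated values were close to day 21 and far from day 7. VIPR2, a receptor gene for vasoactive intestinal peptide, was at 7.50 in undifferentiated cells, 9.70 and 9.76 at day 7 and 7.22 and 7.12 at day 21. OLIG3, a dorsal neural tube regulator, was at 8.22, then 10.29 and 10.24, then 7.72 and 7.71. For both genes the day 21 arrays lay below the undifferentiated array and the day 7 arrays above it, so the decrease of 2.56 and 2.54 on the log2 scale was from a level reached at day 7. Others of the 15 also stood above the undifferentiated array at day 7, but by less, such as GLB1L3 at 9.02, then 9.74 and 9.69, then 7.18 and 7.14. The undifferentiated array is single, so this step has no test here.

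**Figure D2:**
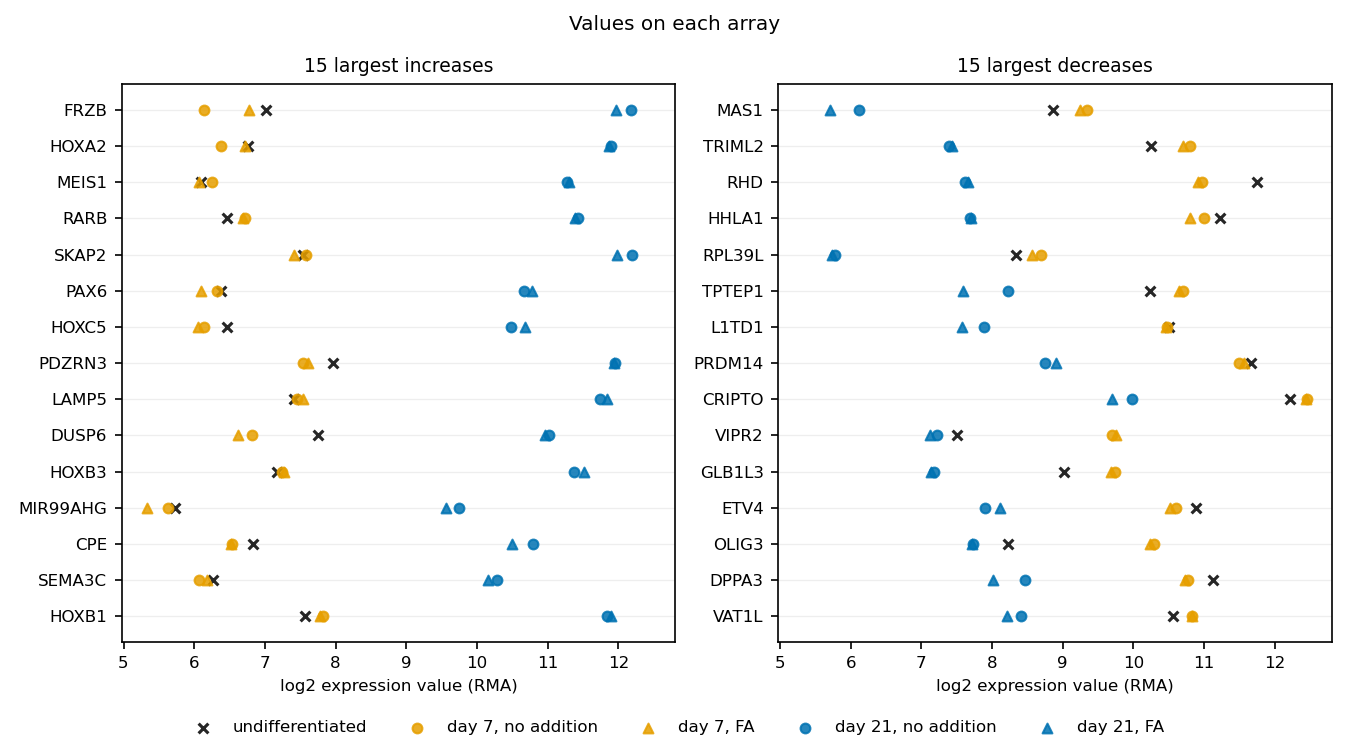
Log2 expression values of the 15 largest increases (left) and the 15 largest decreases (right), small RNAs passed over, on the undifferentiated array and the 4 arrays without ethanol. Circles have no FA, triangles have FA and crosses are undifferentiated cells, and in each row the day 7 and day 21 symbols do not overlap.

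Among microRNA genes, which an array of this kind reads as gene transcripts and not as mature molecules, MIR10A rose and the miR-302 genes fell. MIR10A read 3.77 in undifferentiated cells, 3.58 and 3.46 at day 7 and 9.22 and 9.06 at day 21, the largest mean increase of any gene named (5.62 ± 0.10, 49.2-fold). MIR302B went from 9.88 and 9.66 to 6.37 and 5.79 (-3.69 ± 0.26, 12.9-fold), and MIR302A from 9.13 and 8.83 to 5.97 and 5.70 (-3.15 ± 0.45, 8.85-fold). The undifferentiated array, at 9.93 for MIR302B and 9.29 for MIR302A, was close to day 7. MIR99A rose from 6.70 and 6.82 to 8.23 and 7.98 (1.34 ± 0.15), beside its host transcript MIR99AHG, and MIRLET7I, a member of the let-7 family that opposes the pluripotent state, rose from 8.82 and 8.89 to 9.52 and 9.59 (0.70 ± 0.10). Of 47 microRNA genes listed 29 were measured and 8 were bright enough to be tested, of which 3 rose and 2 fell, where 19.6% of all genes tested rose and 16.3% fell. The adjusted p of those 5 lay between 1.6e-06 and 0.00247 in limma with Benjamini-Hochberg adjustment. MIR10A and MIR99A were below 7.71, the cut for testing, on the undifferentiated and day 7 arrays and were tested through their day 21 arrays. They could hardly pass as decreases, so the filter favoured increases in this count.

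Most embryonal carcinoma and pluripotency genes tested fell. Of 32 genes listed 28 were measured and 24 tested, of which 16 fell and 2 rose (0 without the day 7 array with no addition, 1 without the day 7 FA array or the day 21 array with no addition), with a median of -0.67 against -0.02 over all genes tested. With any 1 array left out, 14 to 19 fell. Over all genes tested 16.3% fell and 19.6% rose with every array kept. DNMT3B, the de novo DNA methyltransferase of early embryos, went from 12.23 in undifferentiated cells and 11.89 and 11.91 at day 7 to 9.47 and 9.55 at day 21 (-2.39 ± 0.06, 5.23-fold). PRDM14, a repressor that guards pluripotency, read 11.67, then 11.49 and 11.56, then 8.75 and 8.91 (-2.70 ± 0.11). CRIPTO, the co-receptor of NODAL, went from 12.45 and 12.44 to 9.98 and 9.70 (-2.61 ± 0.14), and its probes can share signal with a near-identical copy, CRIPTO3. All of these stood at the undifferentiated level or slightly off it at day 7 and had left it by day 21.

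Other members of that list fell by amounts from large to small. The RNA-binding protein gene L1TD1 fell from 10.48 and 10.46 to 7.88 and 7.58 (-2.74 ± 0.11), and DPPA3, a germline and early embryo gene, from 10.77 and 10.74 to 8.46 and 8.01 (-2.52 ± 0.12). PODXL, a surface glycoprotein gene (-1.91), GDF3 (-1.76), KLF4 (-1.55), DPPA4 (-1.39), ZFP42 (-1.17) and SALL4 (-0.69) also fell. SOX2, a core factor that neural progenitors share with pluripotent cells, moved from 12.21 and 12.18 to 11.67 and 11.55 (-0.59 ± 0.07) and stayed bright on all arrays. The exception among the core set was LIN28B, a block on let-7 processing, which rose from 9.41 and 9.51 to 10.25 and 10.02 (0.67 ± 0.10), a call lost without the day 7 array with no addition (0.62, limma's Benjamini-Hochberg adjusted p = 0.0526). POU5F1 and NANOG, the other core factors, were not analysed here because no transcript cluster named either of them alone.

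Retinoic acid genes with opposite roles rose side by side, and the receptor gene RARB rose most. RARB read 6.46 in undifferentiated cells, 6.71 and 6.69 at day 7 and 11.42 and 11.39 at day 21 (4.71 ± 0.09, 26.1-fold, limma's Benjamini-Hochberg adjusted p = 2.14e-06). The promoter of RARB printed above holds the DR5 match. Among other receptors RXRA, the shared partner, changed by 0.42 ± 0.08, a call lost without any 1 of the 4 arrays (adjusted p from 0.0662 to 0.116 in limma with Benjamini-Hochberg adjustment), and RXRB by 0.14. RARG and RXRG were too dim on every array to be tested.

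Retinoid enzymes were split by direction, with 6 of 10 tested rising and 3 falling (median 1.18), where 19.6% of all genes tested rose and 16.3% fell. CYP26B1, ALDH1A1 and BCO1, all increases, were below 7.71, the cut for testing, on the undifferentiated array and the day 7 arrays without ethanol. Such genes could hardly pass as decreases, so the filter favoured increases in this count and in the median. Of the 3 enzymes that destroy retinoic acid 2 rose, CYP26B1 from 6.94 and 6.80 to 10.50 and 10.65 (3.71 ± 0.09) and CYP26A1 from 9.27 and 9.38 to 12.61 and 12.64 (3.30 ± 0.09), and the third, CYP26C1, did not pass (-0.01 ± 0.07). CYP26A1 had been at 8.69 in undifferentiated cells, so its day 7 arrays were already above that level. The retinal reductase gene DHRS3, which returns the precursor to retinol, rose from 8.91 and 8.67 to 11.78 and 11.90 (3.05 ± 0.10). The retinoic acid synthesis gene ALDH1A1 rose from 6.42 and 6.40 to 8.09 and 8.44 (1.86 ± 0.11), while ALDH1A2 was dim on every array. Another synthesis gene, ALDH1A3, fell from 8.10 on both day 7 arrays to 7.56 on both day 21 arrays (-0.54 ± 0.08), a call lost without the day 7 array with no addition (-0.52). LRAT, which stores retinol as esters, fell from 9.48 and 9.40 to 7.71 and 7.32 (-1.92 ± 0.09). The cellular retinoic acid carrier gene CRABP2 rose from 9.42 and 9.38 to 11.37 and 11.47 (2.02 ± 0.11). Falls among these enzymes were fewer (1) without the day 7 array with no addition, and the 6 increases passed as a count of 6 with any 1 array left out.

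HOX genes of all 4 clusters were higher at day 21. Of the 39 HOX genes listed 27 were measured and 18 tested, and 17 of them rose, with 0 falling, where 19.6% of all genes tested rose. A gene dim at day 7 entered the test only if another array was brighter, so the tested HOX genes are not all HOX genes, and the 9 dim ones (HOXB13, HOXC9, HOXC10, HOXC11, HOXC12, HOXC13, HOXD10, HOXD11 and HOXD12) are genes of the 5′ part of their clusters. HOXA2, HOXC5 and HOXD8, among others, were below the filter on the undifferentiated and day 7 arrays and were tested through their day 21 arrays. Such genes could hardly pass as decreases, so the filter favoured increases in this count. HOXA2 was the member of the HOXA cluster analysed here. In the HOXB cluster all 9 genes tested rose, in order of position HOXB1 (4.07), HOXB2 (3.74), HOXB3 (4.19), HOXB4 (2.26), HOXB5 (2.22), HOXB6 (2.07), HOXB7 (0.98), HOXB8 (2.75) and HOXB9 (4.07). HOXB1 went from 7.82 and 7.78 to 11.84 and 11.90, HOXB7 from 7.08 and 7.03 to 8.05 and 8.03, and HOXB9 from 7.15 and 7.29 to 11.29 and 11.28. The differences were thus above 3.7 in HOXB1, HOXB2, HOXB3 and HOXB9 and smallest at HOXB7. MIR10A, which lies in this cluster, changed by 5.62.

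In the HOXC cluster HOXC5 rose from 6.14 and 6.05 to 10.48 and 10.69 (4.49 ± 0.16) and HOXC8 from 7.13 and 7.24 to 8.23 and 7.75 (0.81 ± 0.13). In the HOXD cluster HOXD1 (2.08), HOXD3 (2.15), HOXD4 (2.69), HOXD8 (2.90) and HOXD9 (0.46, lost without the day 7 FA array at 0.41) rose, and HOXD13 went from 7.98 and 7.99 to 8.09 and 8.16 without passing. Limma's adjusted p with Benjamini-Hochberg adjustment for the 17 HOX genes lay between 1.6e-06 and 0.00415. Of 7 cofactors tested 5 rose, or 3 without either day 7 array or without the day 21 array with no addition, led by MEIS1 and by MEIS2, which went from 7.89 in undifferentiated cells to 9.14 and 9.16 at day 7 and 12.21 and 12.10 at day 21 (3.01 ± 0.09). Unlike MEIS1, MEIS2 had already left the undifferentiated level at day 7. Beside the 5 of 7 cofactors, 19.6% of all genes tested rose. MEIS1 was below the filter on the undifferentiated and day 7 arrays and was tested through its day 21 arrays, so it could hardly pass as a decrease.

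**Figure D3:**
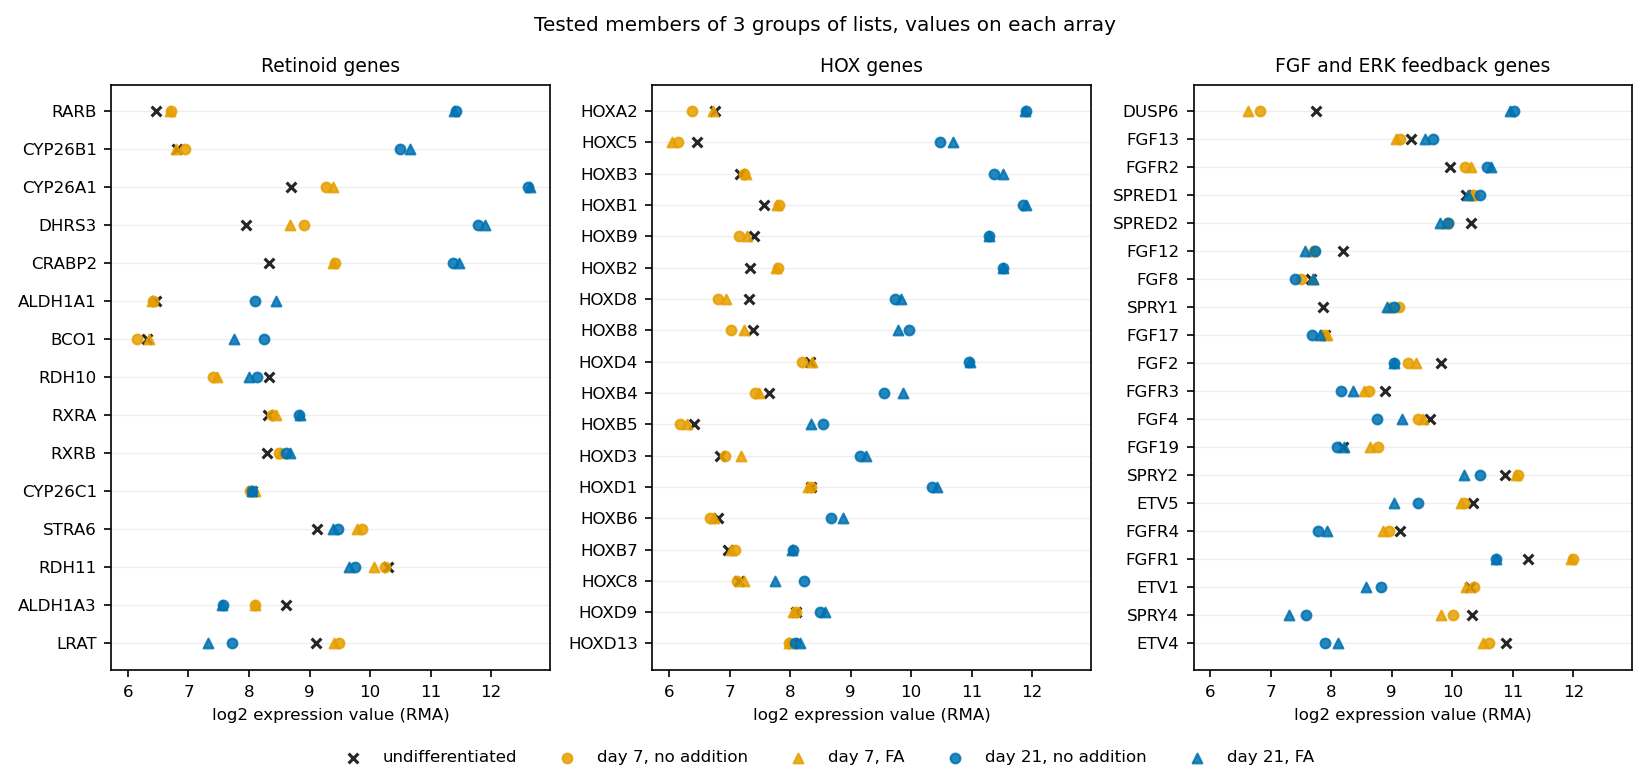
Log2 expression values of every tested member of the retinoid lists (left), the HOX lists (middle) and the FGF and ERK feedback list (right) on the undifferentiated array and the 4 arrays without ethanol, ordered by the difference between the days. RARB, CYP26B1 and most HOX genes lie low on 3 arrays and high on both day 21 arrays, and in the right panel DUSP6 moves opposite to ETV4 and SPRY4.

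The 3 measured protein-coding neighbours on each side of every HOX cluster were examined after the values of SKAP2 had been seen. Beside HOXA, SKAP2 rose by 4.59 and the other 5 neighbours differed by -0.13 to 0.19 without passing. Beside HOXB, CALCOCO2 rose by 0.89, 3 neighbours did not pass and SKAP1 and TTLL6 were dim. Beside HOXC, CALCOCO1 passed at 0.46, a call lost without either day 7 array (0.43 and 0.48), and 5 did not pass. Beside HOXD, NFE2L2 (1.16) and AGPS (0.72) rose, and EVX2 and ATP5MC3 did not pass. MTX2 passed at 0.79 but not without the day 7 array with no addition (0.74), and LNPK passed at 0.47 but not without any 1 of the 4 arrays or either day 21 ethanol array (values from 0.38 to 0.55). SKAP2 thus differed far more than the next neighbour, NFE2L2.

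Neural patterning lists held a few changed genes with differences of unequal size, where 19.6% of all genes tested rose and 16.3% fell. Of 12 dorsoventral regulators tested 2 rose and OLIG3 fell. PAX6 went from 6.37 in undifferentiated cells and 6.32 and 6.09 at day 7 to 10.66 and 10.78 at day 21 (4.52 ± 0.13), and DBX1, which marks interneuron progenitors, from 7.46 and 7.74 to 10.87 and 11.24 (3.46 ± 0.23). Of 7 hindbrain genes tested 2 rose, NR2F1 from 7.84 and 7.87 to 11.29 and 11.39 (3.49 ± 0.11) and IRX3 by 1.16. Of 10 forebrain and midbrain genes tested 1 rose (LHX2, 0.44, lost without the day 7 array with no addition at 0.43) and 1 fell, OTX2, a forebrain and pluripotency regulator (-0.86 ± 0.18). The OTX2 call was lost without any 1 of the 4 arrays, with values from -0.94 to -0.78.

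Neural progenitor and neuron genes included several large increases, many of them in genes below the filter at day 7 that were tested through their day 21 arrays. Of 18 progenitor genes tested 10 rose (6 without the day 7 FA array) and 4 fell (1 or 2 without either day 7 array or the day 21 array with no addition). RFX4, a neural tube regulator, rose from 6.32 and 6.25 to 8.15 and 8.48 (2.03 ± 0.11), followed by DACH1 (2.02), ZIC1 (1.25), ZBTB16 (1.12) and the neural cadherin gene CDH2 (0.77), while the stem cell surface gene PROM1 (-0.99) fell. Of 17 proneural and neuron genes tested 8 rose, among them the adhesion gene NCAM1 from 7.34 and 7.37 to 9.68 and 9.58 (2.27 ± 0.07), LHX1 (1.61), the synaptic vesicle fusion gene SNAP25 (1.60), the RNA-binding protein gene ELAVL2 (1.58) and the migration gene DCX (1.48). The 1 decrease among them, RBFOX3 (-0.34), was lost without any 1 of the 4 arrays (values from -0.40 to -0.27). With a filter on the mean over the embryoid body arrays 7 progenitor and 7 neuron genes rose, among 2219 genes that rose in all. The numbers tested under that filter are not given here. Of the 12254 genes tested without it 19.6% rose. Proneural factors such as NEUROG2, NEUROD4 and ATOH1 were dim on every array. Of 4 glial genes tested the glutamate transporter gene SLC1A2 rose from 6.13 and 6.18 to 8.62 and 8.42 (2.36 ± 0.13) and its relative SLC1A3 fell from 9.35 and 9.40 to 7.73 and 7.59 (-1.71 ± 0.12).

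Of 22 axon guidance genes tested 12 rose, with a median of 0.82, where 19.6% of all genes tested rose, and 2 fell, SEMA6A (-0.49) and PLXNC1 (-0.46, lost without the day 7 array with no addition or either day 21 array, values from -0.46 to -0.35). The secreted cue gene SEMA3C rose from 6.06 and 6.19 to 10.28 and 10.15, the semaphorin receptor gene PLXNA2 by 3.62 ± 0.08 from 7.27 and 7.39, and the netrin receptor gene UNC5C (2.33), the SLIT receptor gene ROBO2 (2.25) and SEMA6D (2.21) also rose. Of 19 cadherin and adhesion genes tested 12 rose, with a median of 0.74, and 4 fell. CDH20 (1.79) and the integrin gene ITGB8 (1.60) rose, whereas L1CAM fell from 9.01 and 8.84 to 7.19 and 7.18 (-1.74 ± 0.08) and the placental cadherin gene CDH3 by 1.04 on the log2 scale. CDH1, the epithelial cadherin, read 8.81 in undifferentiated cells, 10.15 and 10.04 at day 7 and 8.05 and 7.98 at day 21 (-2.08 ± 0.15), another decrease from a level reached at day 7. Filtering on the mean over the embryoid body arrays removed genes dim at day 7, and 7 guidance and 6 adhesion genes then rose, among 2219 genes that rose in all. The numbers tested under that filter are not given here, so these counts have no share to set beside 19.6%.

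Markers of other lineages were mostly dim, with a few large exceptions. Among markers of other cell types, 3 of 5 for mesoderm and muscle, 3 of 4 for endoderm, 3 of 4 for blood and endothelium, 3 of 5 for fibroblasts, 3 of 3 for trophoblast and 2 of 4 for glia were too dim to be tested on any array, TBXT, AFP, ALB, PECAM1, COL1A2 and CGA among them. Of the 6 neural markers 5 were tested and 4 rose, and of the 8 embryonal carcinoma markers all were tested and 7 fell. Over all genes tested 19.6% rose and 16.3% fell. Against this background the growth factor receptor gene PDGFRA rose from 6.85 and 6.82 to 9.57 and 9.18 (2.54 ± 0.11), the muscle and neuron transcription factor gene MEF2C from 7.70 and 7.64 to 11.13 and 10.87 (3.33 ± 0.12), PROX1, a regulator of lymphatic, liver and neural cells, from 6.27 and 6.46 to 9.80 and 9.90 (3.48 ± 0.09), and the endothelin receptor gene EDNRB from 7.98 and 8.07 to 11.77 and 11.73 (3.72 ± 0.14). In the lists that hold these genes 2 of 9 early mesoderm, 1 of 4 heart and muscle, 4 of 10 endoderm and 1 of 9 neural crest genes tested rose, beside 19.6% of all genes tested. Of the other lineage markers tested, the embryonic globin gene HBE1 rose by 0.99, and COL3A1 passed at 0.47 but not without the day 7 FA array, the day 21 FA array or the day 7 array with no addition (values from 0.37 to 0.58). PDGFRA, PROX1 and HBE1 were below the filter on the undifferentiated and day 7 arrays and were tested through their day 21 arrays. The neural markers PAX6 and MAP2, both increases, were below it on the undifferentiated array and the day 7 arrays without ethanol.

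Genes of the neural crest, epithelial and matrix lists changed in both directions. TFAP2A, a crest and ectoderm regulator, went from 11.32 and 11.42 to 9.36 and 9.10 (-2.14 ± 0.15), and SNAI1 fell by 0.85 on the log2 scale, with 4 of 9 crest genes tested falling and 1 rising, against 16.3% and 19.6% over all genes tested. In the epithelial and trophoblast list 3 of 8 genes tested fell and 2 rose, GATA3 (0.57) and KRT8 (0.41, lost without either day 7 array or the day 21 FA array, values from 0.33 to 0.42). CDH1, TFAP2C (-1.77) and the tight junction gene CLDN6 (-1.67) fell. Of 17 fibroblast and matrix genes tested 8 rose, led by the fibrillin gene FBN2 from 6.75 and 6.57 to 9.87 and 9.80 (3.18 ± 0.07), the laminin gene LAMA4 (2.57) and the collagen gene COL5A2 (2.17), and 4 fell (1 or 2 without either day 7 array or the day 21 array with no addition), among them the surface glycoprotein gene THY1 (-1.56). COL1A1, at 8.40 and 8.36 and then 8.28 and 8.34, did not pass. GATA3, FBN2, COL5A2 and the matrix gene POSTN, which also rose, were below the filter on the undifferentiated and day 7 arrays. They were tested through their day 21 arrays and could hardly pass as decreases, so the filter favoured increases in these counts.

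**Figure D4:**
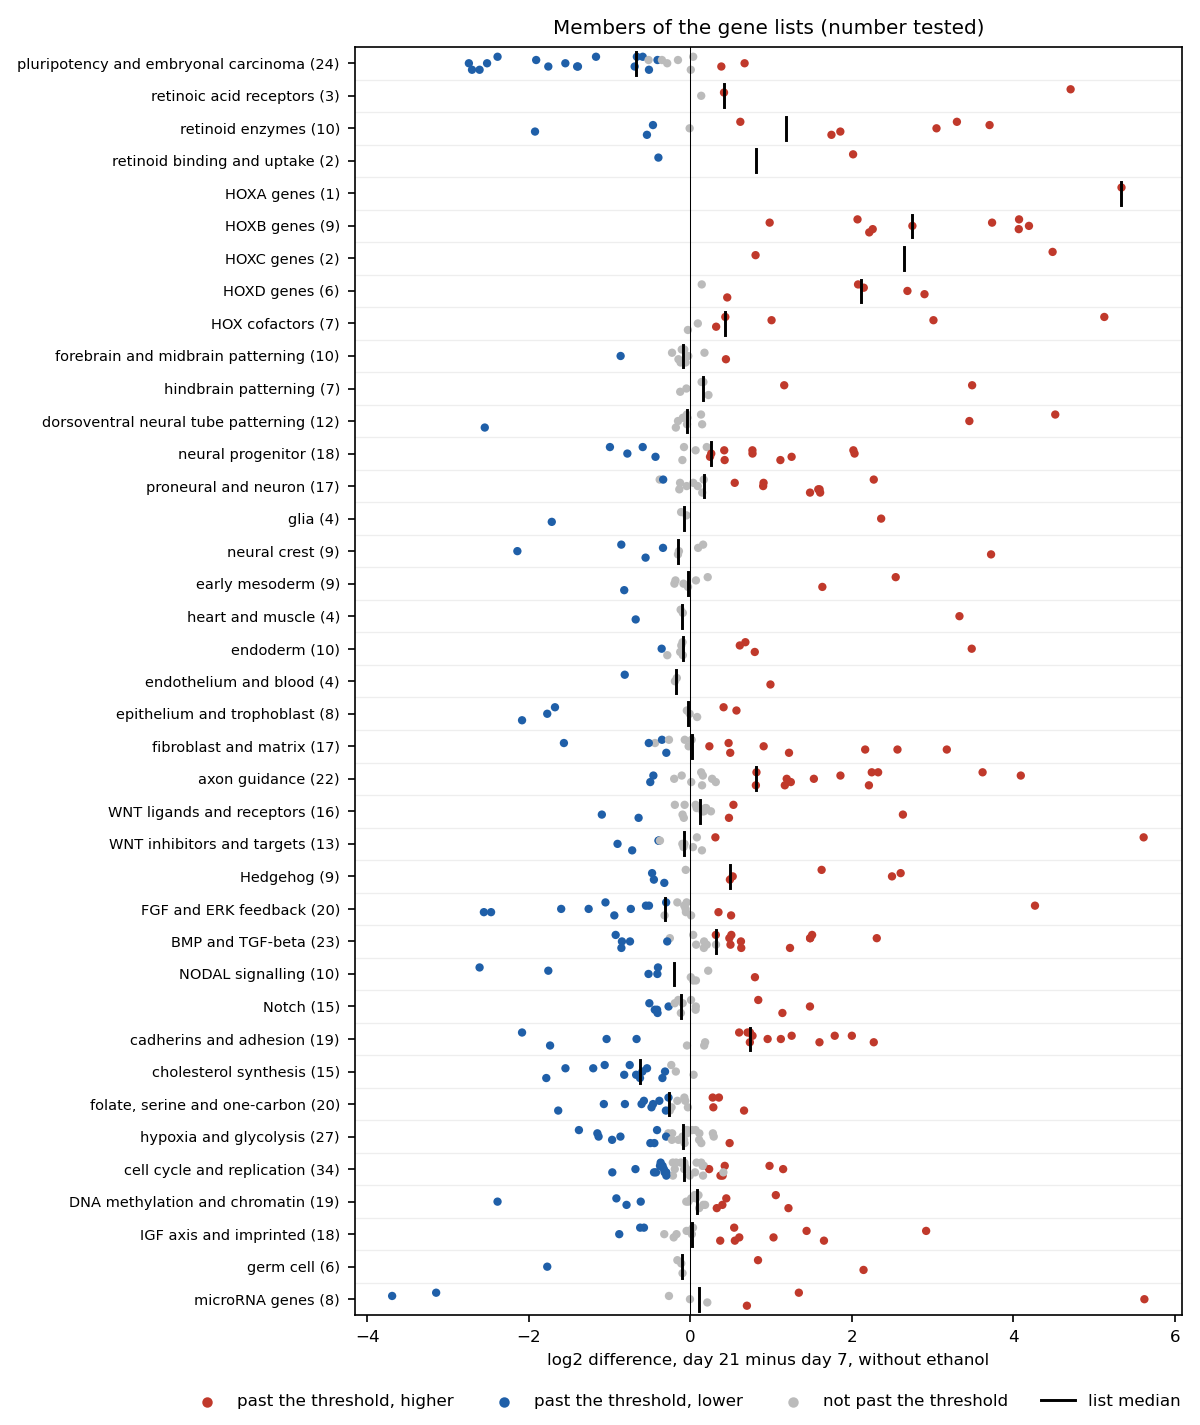
Log2 difference between day 21 and day 7 without ethanol for every tested member of the 39 gene lists, 1 row a list with the number tested. Red and blue points passed the test as higher and lower, grey points did not, and bars mark list medians, which are above 0.7 for the retinoid enzymes, retinoid binding, the HOX lists, axon guidance and adhesion genes and below -0.6 for pluripotency and cholesterol synthesis genes.

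Signalling lists held members that moved in both directions. In the FGF and ERK list 10 of 20 genes tested fell and 3 rose, with a median of -0.31, where 16.3% of all genes tested fell and 19.6% rose. ETV4 fell from 10.61 and 10.51 to 7.90 and 8.11 (-2.55 ± 0.10), the feedback inhibitor gene SPRY4 from 10.01 and 9.81 to 7.58 and 7.30 (-2.47 ± 0.07), ETV1 by 1.60 on the log2 scale and the receptor gene FGFR1 from 12.00 and 11.96 to 10.72 and 10.71 (-1.26 ± 0.08). DUSP6, which like SPRY4 is a feedback gene of this pathway, went the other way, from 7.75 in undifferentiated cells and 6.82 and 6.62 at day 7 to 11.02 and 10.96 at day 21 (4.27 ± 0.11). The ERK-responsive genes thus did not move as a block.

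Of 16 WNT ligands and receptors tested 3 rose and 2 fell, shares near the 19.6% and 16.3% over all genes tested. Single members are given as values, with WNT5A, a ligand of the pathway that does not use beta-catenin, rising from 6.52 and 6.56 to 9.10 and 9.25 (2.63 ± 0.07) and the gene of 1 of its receptors, ROR1, falling from 11.37 and 11.34 to 10.28 and 10.24 (-1.09 ± 0.07). The genes of other receptors of WNT5A, ROR2 (0.48) and RYK (0.53), were the other increases, and both calls were lost without either day 7 array of the 4 (ROR2 0.46 and 0.50, RYK 0.52 and 0.55). The 3 increases numbered 1 without either day 7 array of the 4 and 7 without either day 7 ethanol array. Among inhibitors and targets FRZB rose while its relative SFRP2 fell by 0.90 on the log2 scale, and AXIN2, a target that reports pathway activity, differed by 0.03. In the Hedgehog list the co-receptor genes BOC (from 7.02 and 6.91 to 9.52 and 9.61, 2.60 ± 0.09) and CDON (from 9.04 and 8.78 to 11.42 and 11.39, 2.50 ± 0.14) and the effector gene GLI3 (1.63) rose. PTCH1, receptor and target, read 9.95 in undifferentiated cells, 11.60 and 11.59 at day 7 and 11.08 and 11.17 at day 21 (-0.47 ± 0.07), still above the undifferentiated array, and SHH did not pass.

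In the BMP and TGF-beta list 11 of 23 genes tested rose (7 without the day 7 FA array) and 5 fell, where 19.6% of all genes tested rose and 16.3% fell. The receptor gene BMPR1B (2.31), the ligand gene TGFB2 (1.51), FSTL1 (1.48), the co-receptor gene TGFBR3 (1.48) and the decoy receptor gene BAMBI (1.23) rose, while the antagonist genes FST (-0.92) and NOG (-0.85), the ligand gene TGFB1 (-0.85) and the target ID1 (-0.75) fell. BMPR1B and TGFB2 were below the filter on the undifferentiated and day 7 arrays and were tested through their day 21 arrays, so the filter favoured increases in this count. Of 10 NODAL pathway genes tested 5 fell (3 without the day 7 FA array), with CRIPTO, GDF3 and SMAD3 (-0.52), while the inhibitors LEFTY1 (0.01) and LEFTY2 (0.04) did not pass. In the Notch list HES1, a target and progenitor factor, rose from 8.90 and 8.66 to 10.20 and 10.32 (1.48 ± 0.11), and NOTCH2 by 1.14. The ligand gene DLL1 passed at 0.84 but not without either day 7 array or the day 21 FA array (values from 0.68 to 0.85), and the 5 decreases, all of 0.51 or less on the log2 scale, numbered 0 or 1 without any 1 of the 4 arrays.

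Cholesterol synthesis genes moved in 1 direction, where 16.3% of all genes tested fell and 19.6% rose. Of 15 tested 12 fell and 0 rose, with a median of -0.62, and 6 to 14 fell with 1 array left out (6 without the day 7 array with no addition, 7 without the day 21 FA array). The sterol-responsive regulator gene INSIG1 read 9.45 in undifferentiated cells, 10.31 and 10.18 at day 7 and 8.55 and 8.38 at day 21 (-1.78 ± 0.16). HMGCS1, an early enzyme of the pathway, fell from 11.20 and 11.13 to 9.70 and 9.55 (-1.54 ± 0.14), the last enzyme DHCR7 by 1.20 and the master regulator SREBF2 by 1.06 on the log2 scale. For INSIG1, HMGCS1, DHCR7 and SREBF2 both day 7 arrays were at or above the undifferentiated array and both day 21 arrays below it.

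Folate, hypoxia and cell cycle lists held decreases whose number depended on single arrays, where 16.3% of all genes tested fell and 19.6% rose. Of 20 folate, serine and one-carbon genes tested 10 fell (6 without the day 7 FA array) and 4 rose (0 to 2 with any 1 array left out other than the day 7 ethanol arrays), with the mitochondrial enzyme genes ALDH1L2 (-1.63 ± 0.10) and MTHFD2 (-1.07 ± 0.09) first. ALDH1L2 was at 9.68 in undifferentiated cells, 8.60 and 8.39 at day 7 and 7.11 and 6.61 at day 21, a stepwise series. Of 27 hypoxia and glycolysis genes tested 9 fell, or 3 to 4 without any 1 of the 4 arrays, with ALDOC from 11.63 and 11.55 to 10.21 on both arrays (-1.38 ± 0.17), ADM (-1.15) and NDRG1 (-1.13), and VEGFA (0.07) and LDHA (-0.04) did not pass. Of 34 cell cycle genes tested 11 fell, or 2 to 5 without any 1 of the 4 arrays, and 6 rose (2 to 4 without any 1 of those arrays, 10 without either day 7 ethanol array). The cyclin gene CCND1 fell from 9.74 and 9.69 to 8.73 and 8.77 (-0.96 ± 0.10), the cyclin gene CCNE2 rose by 1.15 and the inhibitor gene CDKN1B by 0.98, and the proliferation markers MKI67 (-0.17) and TOP2A (0.16) did not pass. In undifferentiated cells ALDOC read 10.58, ADM 10.26 and NDRG1 8.13, below both day 7 arrays without ethanol, so their decreases were from a level reached at day 7. At day 21 ADM and NDRG1 were still above the undifferentiated array and ALDOC was below it.

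Chromatin and imprinted genes included a few large changes. Besides DNMT3B, JARID2 (-0.91) fell, TET1 passed at -0.79 but not without the day 7 array with no addition (-0.73), and TET2 (1.22 ± 0.17) and the remodeller gene SMARCA2 (1.06 ± 0.10) rose, whereas DNMT1 (0.09) and DNMT3A (0.07) did not pass. IGFBP5, a binding protein gene of insulin-like growth factors, read 7.39 in undifferentiated cells, 8.68 and 8.60 at day 7 and 11.61 and 11.50 at day 21 (2.92 ± 0.08). The imprinted genes PEG10 (1.66), PLAGL1 (1.44) and NNAT (1.03) rose and GRB10 (-0.88) fell. Of 6 germ cell genes tested 2 rose and 1 fell, where 19.6% of all genes tested rose and 16.3% fell. PRDM1 rose by 2.15 ± 0.06 and TFAP2C fell, while DDX4, DAZL and SYCP3 were dim on every array. KIT passed at 0.84 but not without either day 7 array without ethanol or the day 21 array with no addition (values from 0.66 to 0.92). PRDM1 and KIT were below the filter on the undifferentiated and day 7 arrays and were tested through their day 21 arrays.

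FA was matched in the comparison. An FA by day term, averaged over the arrays without and under ethanol, was tested over all 8 embryoid body arrays. No gene passed (0 of 12254, 0.0%) in limma with Benjamini-Hochberg adjustment, with 1670 (13.6%) at an unadjusted p under 0.05. That term is not a test of the gap between the 2 pairs without ethanol alone. In ACTN3 the gap was 0.68 and the term -0.09. The widest gaps between the pairs without ethanol, chosen by rule and given as values, were in RANBP3L (2.68 without FA, 1.31 with FA), CASZ1 (1.82 and 0.88), LIMD1-AS1 (1.55 and 0.66), FRZB (6.04 and 5.19) and PALMD (2.74 and 1.92). In the other direction they were in SSTR1 (-1.79 and -1.07), ZNF487 (0.02 and 0.75), VENTX (-1.24 and -0.55), ACTN3 (-1.91 and -1.24) and GLYAT (2.21 and 2.85). Each of the 10 genes had 1 direction in both pairs, although ZNF487 was near 0 without FA. Without either of the 2 no-ethanol arrays of day 7 the FA by day test passed 4064 genes on 1 residual degree of freedom.

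The same days were compared under 50 mM ethanol on 4 other arrays, which the rule did not use but which entered the estimate of spread behind the calls. Of the 688 genes that passed and were at least 2-fold apart without ethanol, 684 (99.4%) had that sign in both ethanol pairs, and of all 4402 that passed 4150 (94.3%) did. The share with 1 sign over all genes tested is not given here. Across those genes the mean differences without and under ethanol correlated at 0.946. Under ethanol 348 of the 449 increases (77.5%) and 145 of the 239 decreases (60.7%) were also at least 2-fold. The median of the increases was 1.55 without and 1.38 under ethanol, and that of the decreases -1.27 and -1.09. These genes were chosen for their size without ethanol, so a smaller median elsewhere is a description and was not tested as a difference. RARB (4.62 under ethanol), HOXA2 (5.04), FRZB (5.38) and PAX6 (4.12) had differences close to those without ethanol.

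The difference between the days itself differed with ethanol in 1 gene of 12254 (0.00816%), SHISA3, which codes for an antagonist of WNT and FGF receptors. SHISA3 read 7.64 in undifferentiated cells and went from 7.49 and 7.53 to 9.41 and 9.31 without ethanol (1.85 ± 0.08), whereas the ethanol arrays read 9.10 and 8.89 at day 7 and 9.17 and 9.12 at day 21 (0.15 ± 0.08). The ethanol arrays of both days and the day 21 arrays without ethanol were therefore close together, and the 2 day 7 arrays without ethanol low. The interaction was -1.69 ± 0.11 (limma's Benjamini-Hochberg adjusted p = 0.0358), and 917 genes (7.48%) had an unadjusted p under 0.05. The call was lost when any 1 of the 4 arrays without ethanol or of the 2 day 21 ethanol arrays was left out (adjusted p from 0.347 to 0.691), and without dim gene filtering (0.0519). Without the day 7 array with ethanol alone 329 genes passed, and without that with ethanol and FA 1112.

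Other genes with low p in that test did not pass. PLAC8 rose from 6.57 and 6.53 to 8.07 and 7.93 without ethanol and read 6.57 and 6.48, then 6.76 and 6.79 under it (adjusted p = 0.0683 in limma with Benjamini-Hochberg adjustment). DPPA3 fell by 2.52 without and 1.01 under ethanol on the log2 scale. ALDH1A1 rose by 1.86 without and 0.60 under ethanol, and CRABP2 by 2.02 and 3.33. The adjusted p for DPPA3, ALDH1A1 and CRABP2 was 0.151 each. MIR302B fell by 3.69 and 2.01 and MIR302A by 3.15 and 1.93, with adjusted p of 0.309 and 0.785 in limma with Benjamini-Hochberg adjustment. Among the day 7 arrays the one with ethanol alone, on which MIR302A read 7.53 against 8.83 to 9.13 on the other 3 day 7 arrays, correlated less well with the other day 7 arrays (0.98976 to 0.99102) than they did with each other (0.99546 to 0.9974), and its part in these values was not tested.

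**Figure D5:**
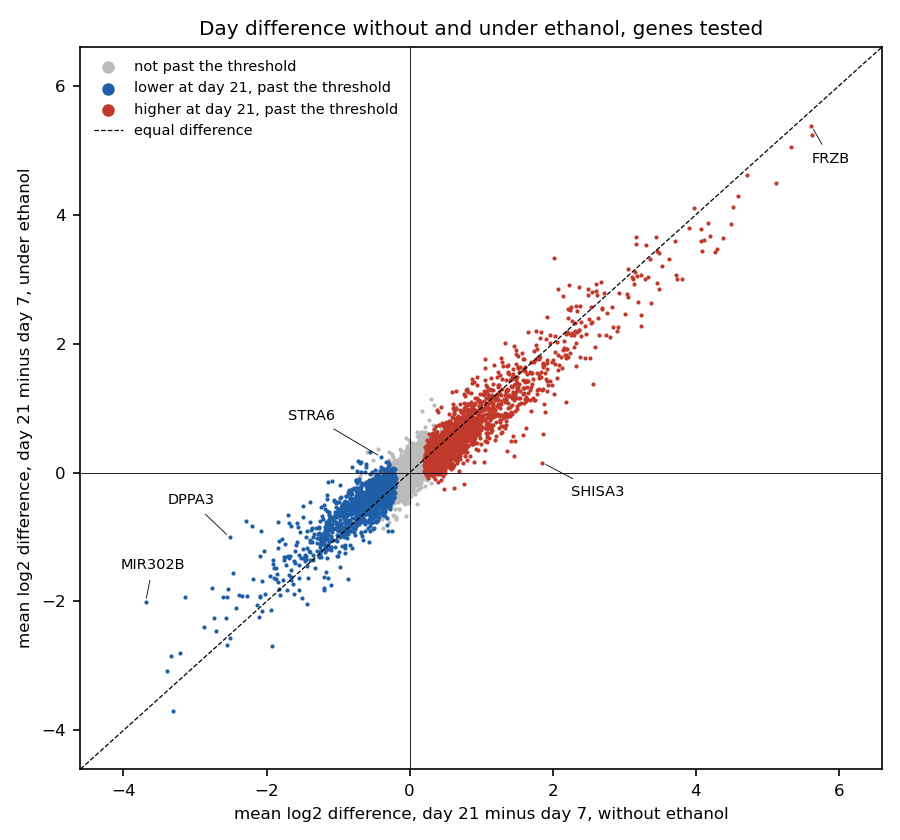
Each point is 1 of the 12254 genes tested, with the mean log2 difference between day 21 and day 7 without ethanol on the horizontal axis and under 50 mM ethanol on the vertical axis. Most coloured points, which passed without ethanol, lie along the dashed line of equal difference, while SHISA3 (1.85 and 0.15), DPPA3 (-2.52 and -1.01) and MIR302B (-3.69 and -2.01) lie nearer to 0 under ethanol and STRA6 changes sign.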

How the data were processed

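Trizol total RNA was made into biotinylated cDNA and hybridised to Affymetrix arrays, per the labels' protocols. Per the submitters' processing notes, the authors ran RMA with Affymetrix Expression Console 1.3.1, and the deposited table holds log2 values, a base inferred from their range (2.49 to 14.3). RMA gives all arrays a common distribution and compresses differences of dim genes. The sources used here do not give a genome build.

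Of 33297 transcript clusters 19460 carried 1 gene symbol in the platform annotation, 1754 several and 12083 none. They gave 18417 genes, with the brightest cluster used for the 769 that had several. Genes whose highest value on any of the 9 arrays was at or below 7.71, the median over all values, were left out (6163), and 12254 remained. 0 pairs of arrays were identical.

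Limma 3.58.1 in R 4.3.3 was fitted to the 8 embryoid body arrays with terms for day, ethanol, ethanol by day and FA (3 residual degrees of freedom, prior 3.49). The day term is the difference without ethanol. FA by day was added in a second fit. Benjamini-Hochberg adjustment ran over all 12254 genes, with a threshold of 0.05. With 1 array per condition, p-values reflect the scatter among arrays, possibly technical. In simulated data for the day 21 against day 7 comparison on 12254 genes, 100% of log2 changes of 2, 91% of 1 and 34.3% of 0.5 were recovered. Only 67 genes were given a change of 0.5, 67 of 1 and 66 of 2, whereas 35.9% of genes passed in the data. The adjustment is stricter where few genes change, so these shares are not the sensitivity of the real comparison.

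The comparison, its members and the 39 gene lists were chosen with earlier results of these data known. Named genes were the 15 largest differences each way with 1 sign in both pairs, up to 4 members of each list in its main direction and 2 in the other, the largest interactions and the 5 widest pair gaps each way, passing over provisional names and, except as members of the microRNA list, small RNAs, so the 15 largest hold none. Other genes were chosen after their values were seen. Alternatives covered centring, filters, cluster averaging, terms, prior, only the 4 arrays, and leaving out each array.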

Additional observations from a re-analysis of the deposited data

Results flagged for a closer look

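SHISA3 was flagged because its difference between day 21 and day 7 was not the same without and under ethanol in the test of that difference. The interaction was -1.69, with an increase of 1.85 in 2 of 2 pairs without ethanol and 0.15 under ethanol (limma's Benjamini-Hochberg adjusted p = 0.0358).

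STRA6, the cell surface receptor that takes up retinol, was flagged because both pairs without ethanol moved one way and both ethanol pairs the other. It read 9.87 and 9.78 at day 7 and 9.46 and 9.39 at day 21 without ethanol (-0.39 ± 0.08), and 9.35 and 9.46, then 9.66 and 9.63 under ethanol (0.24 ± 0.08). The gap of 0.63 between the conditions did not pass the interaction test (limma's Benjamini-Hochberg adjusted p = 0.221). The call without ethanol was itself lost without the day 7 FA array, the day 21 FA array or the day 7 array with no addition (adjusted p from 0.0570 to 0.106).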

How the results depend on the processing

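Of 1846 values of the 214 genes named for their day difference under alternatives that kept all arrays (or used only the 4 without ethanol), 1834 stayed past the threshold with the same direction and 12 were no longer past it, in CDK1, FOXA3, GLI1, LFNG, LNPK, SFRP1, UHRF1 and ETS1. None of the 3558 values, with arrays left out included, turned its direction, and 48 genes lost their call without some array. The number of genes that differed was 1844 to 6852 with 1 array left out (1093 to 3510 higher, 751 to 3342 lower), and with only the 4 arrays without ethanol 3168 were lower and 6522 differed. The ethanol by day interaction passed 0 genes without the filter on dim genes, 3 (all lower) without the FA term and 3 (1 higher, 2 lower) with the FA by day term, and 0 to 1112 with 1 array left out (0 to 792 higher, 0 to 320 lower). The FA by day test passed 0 to 4064 genes with 1 array left out (0 to 1449 higher, 0 to 2615 lower). With 1 array left out its value ranged from -0.55 to 0.37 in ACTN3 (0.37 without a day 7 and 0.22 without a day 21 ethanol array) and from -0.11 (without a day 21 array without ethanol) to 0.59 in GLYAT, so both turned. Of 1326 list counts 175 moved by over 1.5 times, 53 of them with no array left out. The causes were not tested. No paired analysis was possible because the labels give 1 array per condition and no replicate numbers; the match on FA is a term of the fit. With 2 arrays a day, differences of 0.5 on the log2 scale were often missed in simulated data, where few genes changed and the adjustment was stricter. In the data the called differences had a median size of 0.50. Dim genes have little signal over background.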
